A study of Mus musculus with 6 samples.

Results

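The 8 miRNAs described here are known from leukocytes and from the inflammatory response: mmu-miR-142-3p, mmu-miR-142-5p, mmu-miR-146a, mmu-miR-146b, mmu-miR-150, mmu-miR-155, mmu-miR-223 and mmu-miR-342-3p, named below without the species prefix. They were chosen by exact assay name among the 596 mouse miRNA assays of a quantitative real-time PCR array, and each name was found on 1 assay, all on card A. Levels were compared between aortas of 3 EC-Dicerflox mice (VE-Cadherin-CreERT2Dicer1flox/flox/Apoe-/-) and 3 EC-DicerWT mice (VE-Cadherin-CreERT2Dicer1WT/WT/Apoe-/-), to ask whether these miRNAs differ when endothelial cells lose Dicer. Mice of both groups were female littermates, lacked Apoe, carried the same inducible Cre and received tamoxifen (2 mg per 20 g body weight, 5 days). From an age of 6 to 8 weeks they were kept for 12 weeks on a high-fat diet in which fat made up 21%, casein 19.5% and cholesterol 0.15%. Cre was driven by the VE-cadherin promoter, so the deletion was directed at endothelial cells, and the vessels were rinsed with RNAlater before RNA isolation. The RNA came from the whole aorta, in which fewer cells of a type and less RNA per cell cannot be told apart. Dicer1 mRNA was not analysed here.

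Nearly all miRNAs are cut from hairpin precursors by Dicer, and miR-451 is an exception. The strand that is loaded into an Argonaute protein pairs with mRNAs through its seed, here taken as bases 2 to 8. MiR-142 is made in nearly all blood cell lineages, miR-223 mainly in granulocytes and monocytes, and miR-150 in mature lymphocytes, where it represses Myb. MiR-155 and miR-146a are induced by NF-κB in activated macrophages and lymphocytes. MiR-155 promotes inflammatory signalling, among others by repressing Socs1, whereas miR-146a restrains it by repressing Traf6 and Irak1. MiR-146a also inhibits the NF-κB pathway in endothelial cells. In atherosclerotic arteries leukocytes accumulate in the intima and the adventitia.

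The mature sequences are shown from 5′ to 3′ with the seed in capitals, since miRNAs with the same seed can share targets. They were taken from RefSeq (GRCm38.p6), where 7 of the 8 names were matched.
miR-142-3p: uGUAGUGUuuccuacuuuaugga
miR-142-5p: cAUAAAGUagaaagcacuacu
miR-146a: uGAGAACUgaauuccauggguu
miR-146b: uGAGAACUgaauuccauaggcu
miR-155: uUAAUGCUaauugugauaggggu
miR-223: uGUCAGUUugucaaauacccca
miR-342-3p: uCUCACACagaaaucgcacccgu

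The 7 sequences have 6 distinct seeds, and miR-146a and miR-146b share theirs. No other mature entry of the RefSeq table carries any of these 6 seeds. In GRCm38.p6 the miR-142 strands come from the plus strand of chromosome 11, with miR-142-5p at chr11:87756867-87756887 and miR-142-3p at chr11:87756903-87756925. MiR-146a lies on the minus strand at chr11:43374435-43374456 and miR-146b on the plus strand at chr19:46342790-46342811. MiR-155 (chr16:84714143-84714165, plus strand) lies within the noncoding host gene Mir155hg. MiR-342-3p (chr12:108658680-108658702, plus strand) lies within the protein-coding gene Evl. MiR-223 is at chrX:96242884-96242905 on the plus strand and overlaps the long noncoding RNA F630028O10Rik. The table lists no other gene over the hairpins of miR-146a and miR-150.

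The cards give a cycle threshold (Ct), the PCR cycle at which the signal crosses a set level, so a higher Ct means less RNA, and a Ct of 40 stands for no detection. Of the 596 miRNA assays, 394 were detected in all samples, 106 in none, and 439 in at least 3 samples and were tested. A level is the mean Ct of 5 control small RNAs in a sample minus the Ct of the miRNA, in log2 units. This reference Ct lay between 19.4 and 20.4. Of its parts, U87 ran from 21.36 to 23.32 and Y1 from 21.93 to 23.47, both highest in the third replicates. U6 ran from 15.35 to 16.15 and was highest in EC-DicerWT replicate 1. The vessel wall markers were strongly detected, with a Ct of 14.5 to 14.8 for the smooth muscle miR-145 and 17.2 to 17.8 for the endothelial miR-126-3p, beside 19.4 to 20.7 for the erythrocyte miR-451. In 21 tested assays the third replicates of both groups were over 2 cycles away from all other samples, and 0 of these assays were members.

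Of the 8 miRNAs, 7 were detected in all 6 samples and thus were tested, and 1, miR-146b, was detected in none. None of the 7 differed between EC-Dicerflox and EC-DicerWT aortas with an adjusted P under 0.05 in limma, and 0 passed at the unadjusted threshold of 0.05. Of all 439 tested miRNAs, 0 (0%) passed the adjusted and 21 (4.78%) the unadjusted threshold. The estimated log2 changes of the 7 ranged from -0.43 for miR-342-3p to 0.07 for miR-150. Their median was -0.21, beside -0.10 over all tested miRNAs, and 6 of the 7 changes were below 0, beside 61.7% of all tested miRNAs. All 7 were on card A, whereas the 439 came from both cards and were not split by card. With U6 alone as reference the median of all tested miRNAs was -0.48, and that of the 7 was -0.58, since another reference moves all miRNAs of a sample alike. Without EC-DicerWT replicate 2 the median of the 7 was 0.04 and 3 of their changes were below 0, while the median of all tested miRNAs was -0.11. The median of the 7 minus that of all tested miRNAs was -0.10 with all samples and lay between -0.33 and 0.15 when each sample was left out.

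MiR-150 had the highest mean level, followed by miR-142-3p, miR-146a, miR-223, miR-342-3p, miR-155 and miR-142-5p. PCR efficiency was not measured for the single assays, so levels of different miRNAs can be set side by side only as readings of these assays. MiR-150 read 0.60 ± 0.30 (SD, n = 6) log2 units above miR-142-3p within a sample, in 6 of 6 samples. MiR-142-3p and miR-146a had no fixed order, with a within-sample difference of 0.09 ± 0.59 (SD, n = 6) and miR-142-3p higher in 3 of 6 samples. The other neighbours kept their order in 6 of 6 samples. The widest step was between miR-342-3p and miR-155, at 4.05 ± 0.61 (SD, n = 6) log2 units.

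**Figure D1:**
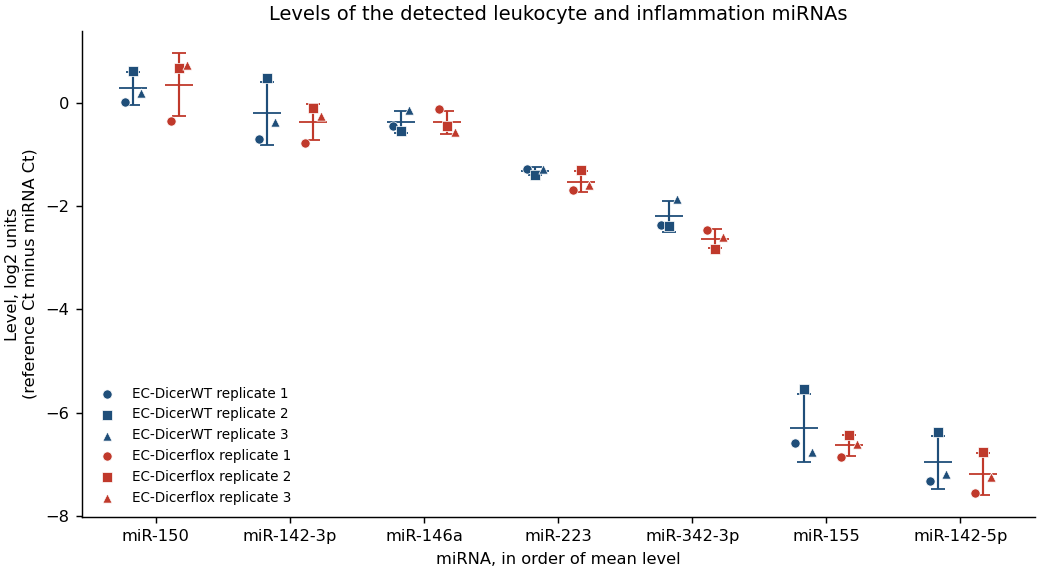
Level of each detected miRNA (log2 units, mean Ct of 5 control RNAs minus miRNA Ct) in the 3 EC-DicerWT and 3 EC-Dicerflox samples. Points are samples with the symbol giving the replicate number, and bars are the group mean ± SD. Groups overlap for every miRNA but miR-342-3p, and EC-DicerWT replicate 2 is the highest sample for miR-142-3p, miR-155 and miR-142-5p.

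Among the lineage miRNAs, the level of miR-142-3p was -0.77, -0.10 and -0.26 in EC-Dicerflox replicates 1 to 3 and -0.70, 0.48 and -0.38 in EC-DicerWT replicates 1 to 3. EC-DicerWT replicate 2 was the highest sample by 0.58 log2 units, and the groups overlapped. The log2 change was -0.18 ± 0.40 (SE) with an adjusted limma P of 0.99. It was 0.16 without EC-DicerWT replicate 2 and 0.02 without EC-Dicerflox replicate 1.

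The myeloid miR-223 had levels of -1.69, -1.29 and -1.60 in EC-Dicerflox and -1.28, -1.40 and -1.27 in EC-DicerWT samples. Its spread was the smallest of the 7, with an SD within groups of 0.16, where the median of the 210 tested miRNAs with a mean Ct between 19 and 28 was 0.33. The log2 change was -0.21 ± 0.21 (SE) with an adjusted limma P of 0.99. As a share of the level in EC-DicerWT aortas this was 86.7%, and the 95% interval ran from 59.8% to 126%. The change was -0.13 without EC-Dicerflox replicate 1, -0.32 without EC-Dicerflox replicate 2 and -0.58 with U6 as reference. Thus a change of miR-223 to less than 59.8% or more than 126% lies outside the interval, and smaller changes were not resolved with 3 mice a group.

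The lymphocyte miR-150 had levels of -0.35, 0.68 and 0.73 in EC-Dicerflox and 0.02, 0.62 and 0.20 in EC-DicerWT samples. Its EC-Dicerflox values spanned more than 1 log2 unit, with replicate 1 the lowest of the 6 samples. The log2 change was 0.07 ± 0.39 (SE) with an interval from -0.91 to 1.06, and its sign turned when the reference was U6 (-0.31) or the mean of U6 and snoRNA135 (-0.09). Levels of miR-342-3p, which shares its transcript with Evl, were -2.47, -2.83 and -2.59 in EC-Dicerflox and -2.36, -2.38 and -1.86 in EC-DicerWT samples. All EC-Dicerflox values were below all EC-DicerWT values, as in 1 of the 7 members, where 9.79% of all tested miRNAs had groups that did not overlap and 7.06% did so with lower levels in EC-Dicerflox.

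The log2 change of miR-342-3p was -0.43 ± 0.25 (SE), so the EC-Dicerflox level was 74.3% of that in EC-DicerWT aortas, with an interval from 47.7% to 116%. The limma P was 0.15 before and 0.99 after adjustment, and miR-342-3p ranked 52nd of the 439 by P. The gap between the groups was narrow: when U6, snoRNA135 or the global mean served as reference the groups overlapped, with changes of -0.81, -0.38 and -0.38. Without EC-DicerWT replicate 3 the change was -0.26.

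Among the NF-κB-induced miRNAs, miR-155 had levels of -6.86, -6.44 and -6.61 in EC-Dicerflox and -6.59, -5.54 and -6.76 in EC-DicerWT samples. EC-DicerWT replicate 2 exceeded every other sample by at least 0.90 log2 units, while the remaining 5 samples lay between -6.86 and -6.44. The log2 change was -0.34 ± 0.39 (SE) with an adjusted limma P of 0.99, and without EC-DicerWT replicate 2 it was 0.04. The levels of miR-146a were -0.13, -0.45 and -0.56 in EC-Dicerflox and -0.45, -0.54 and -0.14 in EC-DicerWT samples. These ranges nearly coincided, and the log2 change was -0.004 ± 0.24 (SE) with an interval from -0.61 to 0.60, its sign turning with snoRNA135 alone (0.04) and with the global mean (0.05) as reference.

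**Figure D2:**
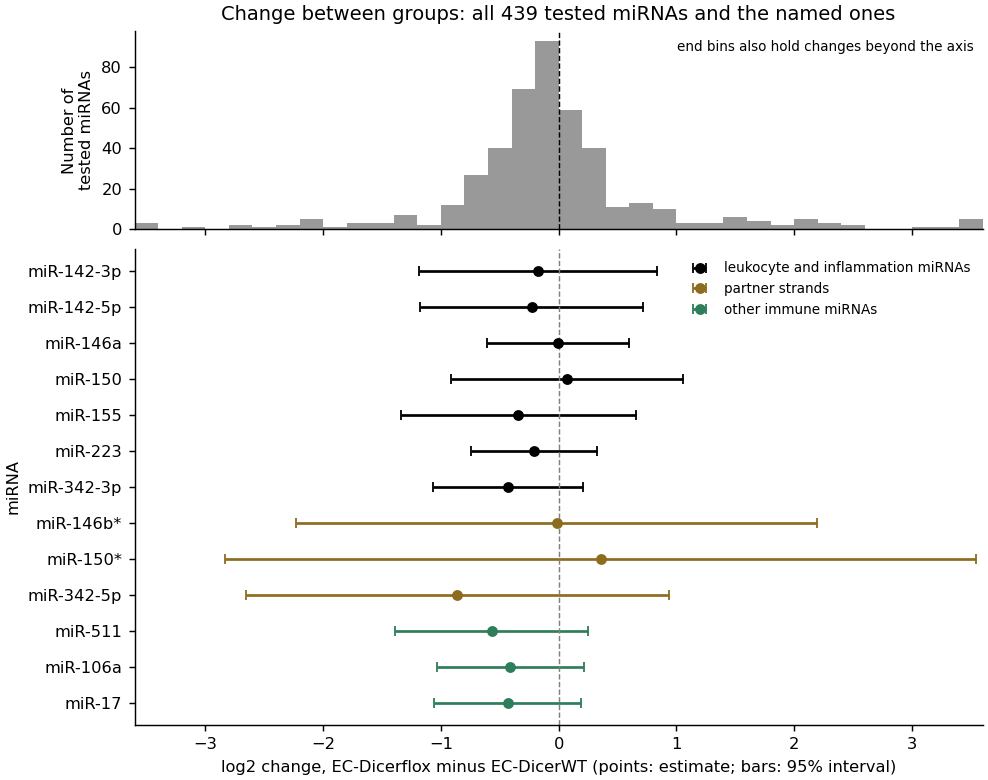
Histogram of the log2 change (EC-Dicerflox minus EC-DicerWT) of the 439 tested miRNAs above the estimates of the 7 detected members, 3 partner strands and 3 other immune miRNAs. Points are limma estimates and bars their 95% intervals, all of which include 0.

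Samples of a group differed from each other most for miR-142-3p, miR-155, miR-150 and miR-142-5p, with SDs within groups of 0.46 to 0.50. Each value was also expressed as the deviation from the miRNA's own mean over the 6 samples. In EC-DicerWT replicate 2 the deviation was 0.77 for miR-142-3p, 0.70 for miR-142-5p and 0.93 for miR-155, the highest of the 6 samples for each, and 0.31 for miR-150. For miR-223, miR-342-3p and miR-146a it was 0.02, 0.03 and -0.16 in the same sample. This sample was thus the highest for 3 of the 7 members, among them both strands of the miR-142 hairpin, which are not independent readings. It was the highest for 13.2% of all tested miRNAs. In the raw Ct, with no reference subtracted, EC-DicerWT replicate 2 was the lowest of the 6 samples for 6 of the 7 members (all but miR-146a) and for 25.7% of all tested miRNAs. Its distance to the next sample was 1.18 cycles for miR-155, 1.00 for miR-142-3p, 0.82 for miR-142-5p and 0.38 for miR-150, but 0.08 for miR-342-3p and 0.001 for miR-223. The within-sample level of miR-155 minus that of miR-223 was -4.14 there and between -5.49 and -5.02 in the other samples.

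EC-Dicerflox replicate 1 had the lowest level of the 6 samples for miR-142-3p, miR-142-5p, miR-150, miR-155 and miR-223. The deviation there was -0.67 for miR-150 and -0.48 for miR-142-3p, whereas miR-146a deviated by 0.25 and was highest in this sample. The share of all tested miRNAs that were lowest in this sample was not counted. Their median deviation was lowest there too, at -0.134, beside -0.119 in EC-Dicerflox replicate 2. The reference Ct of this sample, 19.44, was the lowest of the 6. In the raw Ct it was the latest sample for none of these members. For miR-223 the Ct was 21.127 there and 21.955 in EC-Dicerflox replicate 3. The mean level of the 7 members was -2.83, -2.46 and -2.59 in EC-Dicerflox and -2.67, -2.16 and -2.48 in EC-DicerWT samples. The group means of -2.63 ± 0.19 (SD, n = 3) and -2.44 ± 0.26 (SD, n = 3) differed by -0.19, about as much as mice of a group differed from each other.

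**Figure D3:**
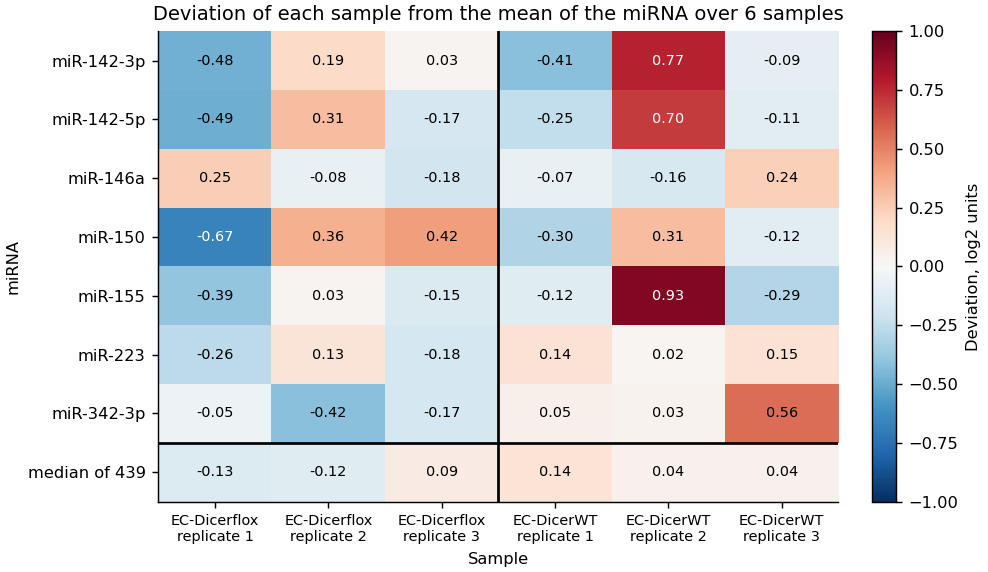
Deviation of each sample from the mean of each miRNA over the 6 samples (log2 units, red above and blue below the mean), with the median deviation of all 439 tested miRNAs in the bottom row. EC-DicerWT replicate 2 stands out with 0.77, 0.70 and 0.93 for miR-142-3p, miR-142-5p and miR-155 and is near 0 for miR-223 and miR-342-3p.

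Other cell type markers were set beside these samples. The mean level of the 4 endothelial miRNAs lay between -1.02 and -0.59 over the 6 samples, that of the 2 smooth muscle miRNAs between 4.15 and 4.79, and that of the 2 erythrocyte miRNAs between -1.08 and -0.33. EC-DicerWT replicate 2 had values of -0.69, 4.15 and -0.42, of which the smooth muscle value was the lowest of the 6. EC-Dicerflox replicate 1 had the lowest endothelial value, -1.02. There miR-126-3p, miR-126-5p and miR-221 were each at their lowest, but miR-222, at -0.44, was not. The smooth muscle and erythrocyte values of this sample were 4.165 and -0.626. The smooth muscle miR-143 was also at its lowest there, at 3.437, while miR-145 was not. The median deviation of all tested miRNAs was lowest in this sample too, at -0.134. In the raw Ct this sample was not the latest for miR-126-3p, miR-126-5p or miR-221. Since the deletion was directed at endothelial cells, fewer such cells and less miRNA per cell cannot be told apart in EC-Dicerflox. The part of cell composition in these sample differences was not tested.

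Both strands of the miR-142 hairpin were read in every sample. MiR-142-5p had a Ct of 27.0, 26.6 and 27.6 in EC-Dicerflox and 26.9, 25.8 and 27.4 in EC-DicerWT samples, and miR-142-3p a Ct of 20.2, 20.0 and 20.6 and of 20.3, 18.97 and 20.5. The assay of miR-142-5p thus crossed the signal level 6.79 ± 0.13 cycles (SD, n = 6) after that of miR-142-3p, although the levels of both strands varied by more than 1 cycle between samples. The gap between the strands averaged 6.82 ± 0.16 cycles in EC-Dicerflox aortas (SD, n = 3) and 6.76 ± 0.12 cycles in EC-DicerWT aortas (SD, n = 3; difference 0.05, P = 0.8, exact two-sided permutation test; Benjamini-Hochberg adjusted over 2 strand pairs, P = 0.8). The smallest P that 3 against 3 samples allow is 0.1. For miR-142-5p the log2 change was -0.23 ± 0.37 (SE) with an adjusted limma P of 0.99, and 0.07 without EC-DicerWT replicate 2.

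The strands of miR-342 were further apart and less regular. MiR-342-5p was later than miR-342-3p by 7.36, 7.97 and 9.45 cycles in EC-Dicerflox and by 7.32, 7.09 and 9.09 cycles in EC-DicerWT samples. The third replicate of each group had the widest gap. The difference between the groups was 0.43 cycles (P = 0.5, exact two-sided permutation test, adjusted P = 0.8), and -0.16 without EC-Dicerflox replicate 3. The log2 change of miR-342-5p itself was -0.86 ± 0.71 (SE), with an interval from -2.66 to 0.94 and an adjusted limma P of 0.99. It was -0.29 without EC-Dicerflox replicate 3, whereas leaving out EC-Dicerflox replicate 1 gave -1.39 and leaving out EC-DicerWT replicate 3 gave -1.32.

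MiR-146a and miR-146b differ at 2 of 22 bases, G18A and U21C (base in miR-146a, position from 1 at the 5′ end, base in miR-146b). The differing bases are in capitals below.
miR-146a: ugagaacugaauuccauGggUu
miR-146b: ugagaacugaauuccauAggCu
MiR-146a was read at a Ct between 19.6 and 20.9, whereas the assay of miR-146b gave a Ct of 40 in all 6 samples, as 106 of the 596 assays did. The opposite strand of the miR-146b hairpin, miR-146b*, is shown because it was detected where miR-146b was not.
miR-146b*: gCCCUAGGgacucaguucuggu
MiR-146b* (chr19:46342828-46342849, plus strand, seed in capitals) had a Ct of 29.8, 30.4 and 29.9 in EC-Dicerflox and 31.3, 29.6 and 28.7 in EC-DicerWT samples. It was run on card B, and how well either assay reads its target was not tested. Its log2 change was -0.02 ± 0.87 (SE). MiR-150* on card B had a Ct of 27.5, 30.2 and 28.4 in EC-Dicerflox and 26.98, 28.02 and 31.7 in EC-DicerWT samples, and its log2 change of 0.36 ± 1.26 (SE) lay well within the spread between mice. The adjusted limma P was 0.99 for both partner strands, and the signs of both turned in some alternatives.

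**Figure D4:**
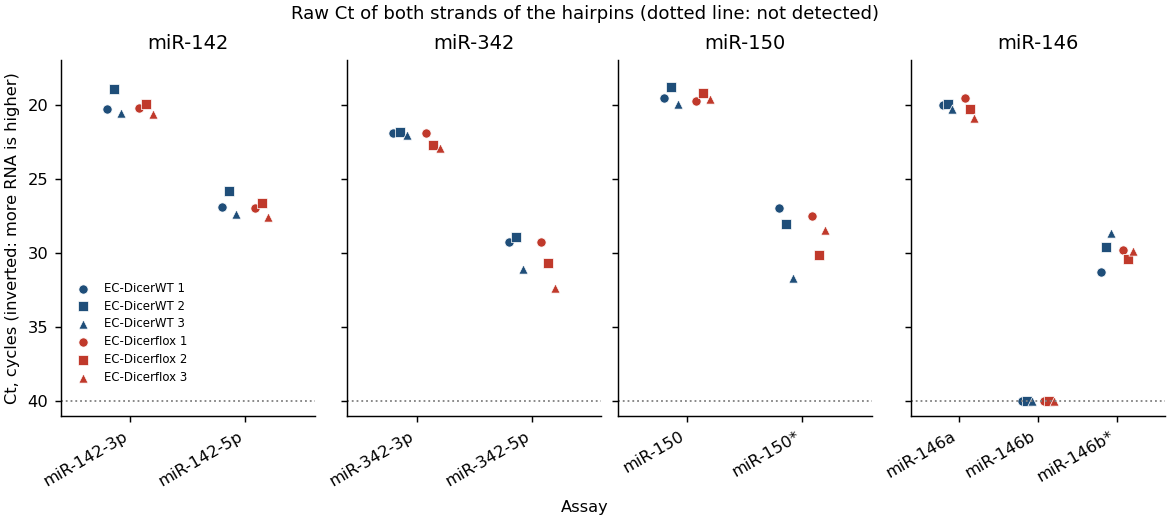
Raw Ct (cycles, axis inverted so that more RNA is higher) of the strands of the miR-142, miR-342, miR-150 and miR-146 hairpins in the 3 EC-DicerWT and 3 EC-Dicerflox samples. The miR-142 strands keep a gap of 6.79 cycles, and miR-146b lies at the detection limit of 40 in all samples while miR-146b* is between 28.7 and 31.3.

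A list of 20 other miRNAs linked to leukocyte development or inflammation gave 18 assays on the cards, and all 18 were tested. None passed the adjusted or the unadjusted threshold in limma. Their median log2 change was -0.24, beside -0.10 over all tested miRNAs, and 16 of the 18 changes were below 0, beside 61.7% of all tested miRNAs. These numbers moved with single samples, to 10 of 18 and a median of -0.16 without EC-DicerWT replicate 3 and to 11 of 18 and -0.16 without EC-Dicerflox replicate 2. The references moved the count between 14 of 18 (snoRNA135 or the global mean) and 18 of 18 (U6). All but miR-212 were on card A, while the share over all tested miRNAs was taken over both cards. The smallest unadjusted P values belonged to miR-511, which lies in the gene of the macrophage mannose receptor, and to miR-17 and miR-106a, which share a seed family and are abundant in dividing cells. MiR-511 had levels of -8.44, -8.88 and -8.29 in EC-Dicerflox and -8.02, -8.38 and -7.51 in EC-DicerWT samples, so the groups overlapped. Its log2 change was -0.57 ± 0.32 (SE) with a limma P of 0.14 (adjusted P of 0.99), and without EC-DicerWT replicate 3 it was -0.34. The log2 change was -0.43 ± 0.25 (SE) for miR-17 and -0.41 ± 0.25 (SE) for miR-106a, with unadjusted P values of 0.14 and 0.15.

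The miRNAs with the most similar pattern over the 6 samples were found by the root mean square difference of the deviations. For miR-142-3p the nearest of the other 438 tested assays was its own partner miR-142-5p (0.12 log2 units), followed by miR-15b (0.13) and miR-669a (0.17), where the median over all assays was 0.64. For miR-150 the nearest were miR-335-5p (0.17), miR-15b (0.18) and miR-362-3p (0.24), with a median of 0.61. For miR-223 they were miR-500 (0.12), let-7b (0.12) and miR-188-5p (0.13), with a median of 0.48. Among the members, miR-142-5p and miR-155 (0.18) and miR-142-3p and miR-155 (0.19) were the closest after the miR-142 strands, and miR-150 and miR-342-3p were the farthest apart (0.58). Each is a distance over 6 samples and describes these samples only.

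**Figure D5:**
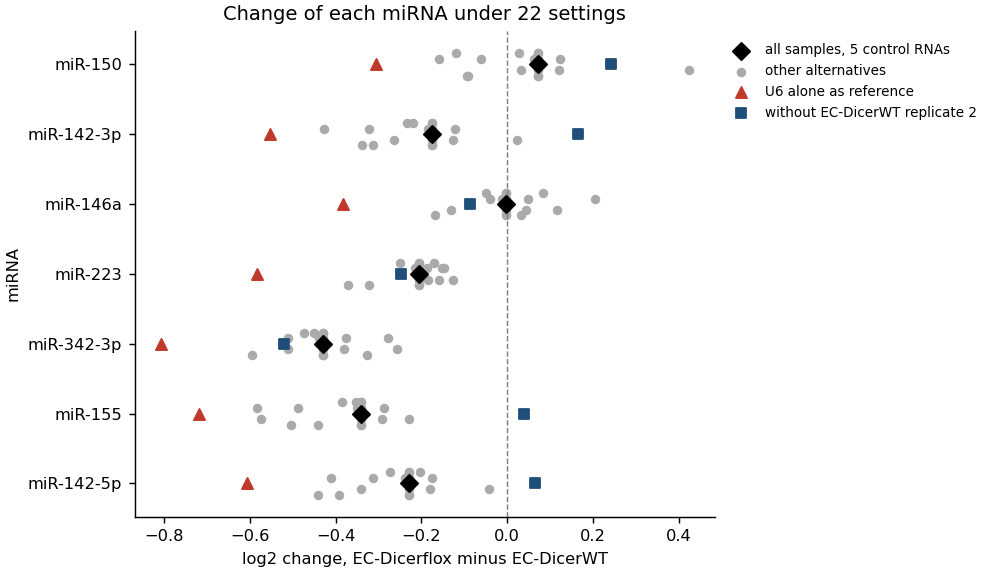
Log2 change (EC-Dicerflox minus EC-DicerWT) of each detected miRNA under 22 settings, with diamonds for all samples and 5 control RNAs, triangles for U6 alone as reference and squares for the fit without EC-DicerWT replicate 2. MiR-223 and miR-342-3p stay below 0 throughout, and leaving out EC-DicerWT replicate 2 moves miR-142-3p, miR-142-5p and miR-155 above 0.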

How the data were processed

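The authors reverse transcribed and preamplified aortic RNA with rodent primer pools and ran it on TaqMan array cards. They deposited raw Ct values, 1 column a mouse, without normalisation. The baseline and threshold settings are not given in the sources used here. The table held 596 mouse miRNA assays, which the format of the assay number placed on card A (335) or card B (261), 10 control assays and 2 plant assays. The reference was the mean Ct of U6, snoRNA135, snoRNA202, U87 and Y1, each averaged over both cards. Doubling of the product in every cycle was assumed, and values at 40 were kept.

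MiRNAs with a Ct under 40 in at least 3 of 6 samples were compared between groups by limma's lmFit and eBayes (limma 3.58.1, R 4.3.3), two-sided and without a replicate block. P values were adjusted by Benjamini-Hochberg over all 439. The fit was run on simulated data with independent noise for each miRNA, to check that it recovers planted changes. Its rates of true and false calls are not given here. Within-sample strand differences were compared by exact permutation over the 20 assignments. The members and lists were chosen with earlier results of these data known, so no P is given for them as a set. Named miRNAs were the members, their partner strands, the 3 other immune miRNAs with the smallest P, the markers miR-126-3p, miR-145 and miR-451, and the 3 nearest assays of miR-142-3p, miR-223 and miR-150. Alternatives changed the reference RNA, the detection filter and limit, the variance model, the block, the batch and the samples. Their use on the other immune miRNAs was chosen after the data were seen. The labels call the replicates biological, and precision is limited by 3 mice a group.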

Additional observations from a re-analysis of the deposited data

Results flagged for a closer look

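An assay for a plant miRNA, which enters no comparison, had a Ct of 39.776 on card A in EC-Dicerflox replicate 1 and a Ct of 40 in the other samples and on card B. The value stands out because it is a signal in an assay outside the comparisons. The detected members had Ct values of 27.6 or lower in all samples, and miR-146b stayed at 40 in that sample too.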

How the results depend on the processing

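None of the 7 members had an adjusted or an unadjusted limma P under 0.05 in any of the 21 alternatives, and the smallest unadjusted P was 0.0836, for miR-342-3p with an intensity trend. MiR-223 and miR-342-3p were below 0 in all 21, as were miR-342-5p, miR-511, miR-17 and miR-106a. With U6 alone miR-223 was -0.584, miR-342-3p -0.807, miR-17 -0.809, miR-106a -0.787 and miR-511 -0.946, the median change of the members was -0.58, their mean level differed by -0.57, and 11 of all tested miRNAs passed the unadjusted threshold. With a batch term for the third replicates, and in replicates 1 and 2 alone, 1 of all tested miRNAs, not a member, passed the adjusted threshold.

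The sign of some changes turned. MiR-146a was 0.049 and miR-146b* 0.036 with the global mean, 0.044 and 0.032 with snoRNA135 alone, and 0.204 and 0.483 in replicates 1 and 2 alone. MiR-150 was -0.306 and miR-150* -0.019 with U6 alone, and -0.158 and -1.184 in replicates 1 and 2 alone. MiR-150 was -0.093 with U6 and snoRNA135. The miR-142 strand difference was -0.008 in replicates 1 and 2 alone. The cause was not tested.

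When each replicate was left out, the median change of the members ranged from -0.41 to 0.04 and their mean level difference from -0.30 to -0.05. MiR-142-3p ranged from -0.426 to 0.164, miR-142-5p from -0.441 to 0.065, miR-146a from -0.13 to 0.115, miR-150 from -0.119 to 0.423, miR-155 from -0.573 to 0.038, miR-223 from -0.323 to -0.126, miR-342-3p from -0.52 to -0.258, miR-342-5p from -1.391 to -0.287, miR-511 from -0.774 to -0.338, miR-17 from -0.612 to -0.326, miR-106a from -0.583 to -0.298, miR-146b* from -0.821 to 0.789 and miR-150* from -0.819 to 1.24. The strand difference ranged from -0.031 to 0.128 cycles for miR-142 and from -0.163 to 1.058 cycles for miR-342. The miRNAs past the unadjusted threshold numbered from 8 (without EC-Dicerflox replicate 2) to 22, with 13 in the absence of EC-DicerWT replicate 1 and 11 in the absence of EC-DicerWT replicate 3.

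Under a replicate block 0 members passed either threshold, 17 of all tested miRNAs passed the unadjusted and 0 the adjusted one, and the median change of the members was -0.21. Samples of the same number had correlations of their deviations across miRNAs of 0.147, -0.062 and 0.31, and not all of them were over 0.1, so same-numbered mice were not treated as pairs.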
